A study of Mus musculus with 6 samples.

Results

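The genes described here encode 10 chaperones and disulphide isomerases of the endoplasmic reticulum (ER), out of 33006 genes in the tables: Hspa5, Hsp90b1, Manf, Sdf2l1, Calr, Canx, Pdia3, P4hb, Pdia4 and Pdia6. They were chosen by name, with earlier results of these data known. Each matched its gene symbol in all 6 libraries, and all 10 were among the 12924 genes that passed the filter on low counts. The RNA came from endothelial cells isolated from the lungs of C57BL/6 mice and grown in culture, in an H2O2 group of 3 libraries, whose cells received 300 uM hydrogen peroxide for 6 hours, and a control group of 3 libraries, whose cells received water. Both groups were treated at 80% confluence in the same endothelial growth medium, and libraries were made from 100 ng of total RNA. The number of animals behind the cells, the passage and whether replicates were separate cultures are not given in the sources used here, so the p-values here speak of differences between libraries, whose scatter may be technical.

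Proteins that enter the secretory pathway fold in the lumen of the ER. Hsp70-type and Hsp90-type chaperones there hold unfolded chains, a pair of lectin chaperones retains glycoproteins until they are folded, and isomerases of the PDI family make and rearrange disulphide bonds, a chemistry that itself produces hydrogen peroxide through the ER thiol oxidases. When unfolded protein builds up, the unfolded protein response raises many of these genes: the cleaved factor ATF6, together with NF-Y, binds a promoter sequence called the ER stress response element (ERSE), and XBP1 and ATF4 act on overlapping sets of targets. Endothelial cells rely on this machinery to secrete von Willebrand factor and matrix proteins.

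Gene counts per library ran from 26042296 to 27618679 in H2O2 libraries and from 22455388 to 25626849 in control libraries, and the 10 genes had 1367 to 61441 counts each in a library. Endothelial markers were abundant, with a summed level of 4426 to 4514 counts per 1000000 gene counts (CPM, without scaling factors) in H2O2 libraries and 4206 to 4297 CPM in controls for 10 genes, led by Cdh5. Of these, 9 were tested, and 3 were called higher with H2O2 and 0 lower, beside 9.70% higher and 10.8% lower over all tested genes. Sums for 5 lymphatic markers were 2248 to 2315 CPM with H2O2 and 2198 to 2227 CPM in controls, with 3 of the 4 tested called higher. For 7 leukocyte markers they were 162 to 169 CPM with H2O2 and 156 to 164 CPM in controls, nearly all from Cd68, with Emr1 and Cd3e at 0. Fibroblast markers summed to 24.4 to 27.6 CPM with H2O2 and 26.5 to 27.7 CPM in controls, with Col1a2 at 0. Smooth muscle, epithelial and mesothelial markers were below 7 CPM in sum in every library, with Sftpc, Scgb1a1, Krt8, Upk3b, Wt1 and Krt19 at 0. Of 5 plasma cell markers, a cell type rich in ER chaperones, Igkc and Ighm were at 0 in all libraries. The sum of those 5 was 65.8 to 66.8 CPM with H2O2 and 56.7 to 60.8 CPM in controls, and the only 1 tested was called higher. That sum is nearly all the syndecan gene Sdc1, at 66.3 CPM with H2O2 and 58.8 CPM in controls, and the part of these markers in the results below was not tested.

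The ERSE sequences of these genes are shown first, because they tell which promoters carry the element best known from the unfolded protein response. RefSeq promoter windows (build GRCm38.p6, the assembly of mm10) were found for 9 of the 10 genes, Manf being the exception. Each window of 300 bases, 250 before the annotated start and 50 after it, was searched on both strands for the exact ERSE, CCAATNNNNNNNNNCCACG. The element was in 5 of the 9 windows (55.6%): Hspa5, Hsp90b1, Calr, Canx and Pdia6. Among all 32851 promoter windows of the table, 39 (0.119%) held it. The genes were chosen by name and many are known targets of this element, so the difference between these shares is not a finding. The motif includes the shorter CCAAT and CCACG, which on their own occur in 37.4% and 32.8% of windows. ERSE-II, ATTGGNCCACG, was in 0.0365% of all windows and in 0 of the 9. Pdia3, P4hb, Pdia4 and Sdf2l1 had no exact ERSE in this window. The elements are given with both fixed parts in capitals and the 9 bases between them in lower case, so that the spacers can be compared.
Hspa5, chr2:34772025-34772043, plus strand: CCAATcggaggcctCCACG
Hsp90b1 distal, chr10:86705638-86705656, minus strand: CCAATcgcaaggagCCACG
Hsp90b1 proximal, chr10:86705533-86705551, plus strand: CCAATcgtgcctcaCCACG
Calr, chr8:84847075-84847093, plus strand: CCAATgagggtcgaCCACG
Canx, chr11:50325800-50325818, minus strand: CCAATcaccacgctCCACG
Pdia6, chr12:17266491-17266509, plus strand: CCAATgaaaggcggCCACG

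In Hspa5 the element lay 65 to 47 bases before the RefSeq start, closer than in any of the other 4 promoters. It lay 98 to 80 bases before the start in Pdia6, 107 to 89 and 212 to 194 in Hsp90b1, 145 to 127 in Canx and 162 to 144 in Calr. In Calr and at the proximal Hsp90b1 site it ran on the strand opposite to transcription, so it appears there as its reverse complement, beginning with CGTGG. GENCODE M21 starts 4 of the 5 genes earlier than RefSeq, so that 120 of the 250 bases before the RefSeq start lie inside the annotated gene for Hspa5, 65 for Hsp90b1, 44 for Pdia6 and 3 for Calr. In Hspa5 the element itself lies there. For the other 4 genes, the bases outside the GENCODE gene are printed in the direction of transcription, with the whole element in capitals.
Hsp90b1, chr10:86705510-86705694, minus strand: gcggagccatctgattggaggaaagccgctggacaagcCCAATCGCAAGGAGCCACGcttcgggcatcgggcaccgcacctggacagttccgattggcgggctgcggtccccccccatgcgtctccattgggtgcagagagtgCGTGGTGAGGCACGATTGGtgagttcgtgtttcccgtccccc
Calr, chr8:84846935-84847181, minus strand: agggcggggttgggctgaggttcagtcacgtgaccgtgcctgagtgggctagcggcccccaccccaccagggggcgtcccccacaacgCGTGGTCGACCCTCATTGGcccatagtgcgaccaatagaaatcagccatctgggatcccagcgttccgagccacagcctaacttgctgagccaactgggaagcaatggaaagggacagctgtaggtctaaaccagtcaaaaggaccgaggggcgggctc
Canx, chr11:50325674-50325923, minus strand: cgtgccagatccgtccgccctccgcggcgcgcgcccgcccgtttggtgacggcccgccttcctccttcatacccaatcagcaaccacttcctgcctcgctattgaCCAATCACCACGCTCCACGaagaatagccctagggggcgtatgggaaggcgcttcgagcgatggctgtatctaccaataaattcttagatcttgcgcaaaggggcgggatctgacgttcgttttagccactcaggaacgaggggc
Pdia6, chr12:17266339-17266544, plus strand: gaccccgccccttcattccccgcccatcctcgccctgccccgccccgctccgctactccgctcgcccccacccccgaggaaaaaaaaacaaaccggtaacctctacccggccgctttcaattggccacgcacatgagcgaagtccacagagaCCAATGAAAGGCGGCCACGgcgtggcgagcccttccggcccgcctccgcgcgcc

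With H2O2, 4 of the 10 genes changed. Hspa5 and Manf fell and Pdia3 and Canx rose, while Hsp90b1, Sdf2l1, Calr, P4hb, Pdia4 and Pdia6 did not pass the test (edgeR's quasi-likelihood test, adjusted over all 12924 genes by the Benjamini-Hochberg method, threshold 0.05). The 2 rises stand beside 9.70% of all tested genes called higher and the 2 falls beside 10.8% called lower. Over all tested genes, 20.5% were called in either direction, a share that covers genes of every level. Of the 18 tested genes at the mean level of Hspa5 or above, Hspa5 among them, 11 were called. The share among genes matched in level to the 10 was not computed, so 4 of 10 is not read as an excess. The log2 fold changes of H2O2 over control ran from -0.30 to 0.11, with a median of -0.009 over the 10 genes and -0.004 over all tested genes. All 3 H2O2 libraries lay on one side of all 3 controls for 5 of the 10 genes, against 34.6% of all tested genes. Since these are bulk libraries, fewer cells with a transcript and less of it per cell cannot be told apart.

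**Figure D1:**
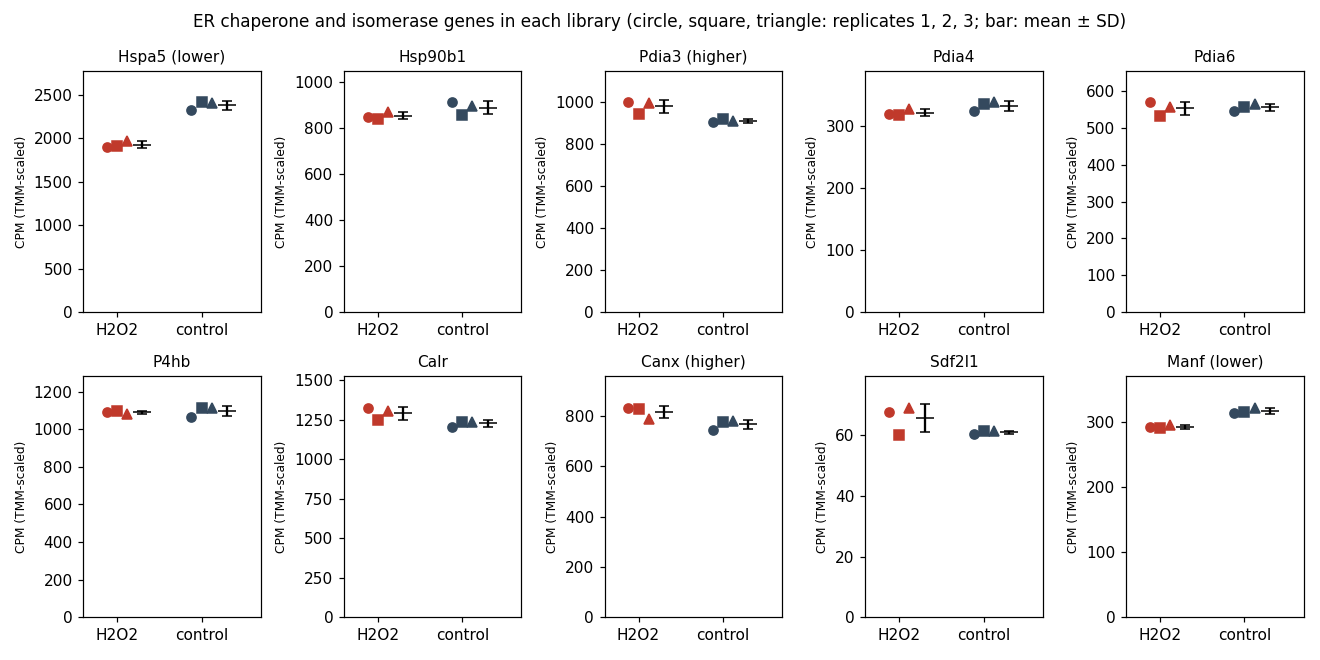
Level of each of the 10 genes in every library, in CPM scaled with TMM factors on axes that start at 0, with H2O2 libraries in red on the left and control libraries in dark blue on the right. Circles, squares and triangles are replicates 1, 2 and 3, the bar is the mean ± SD (n = 3), and only Hspa5 shows a gap that is wide beside its level, 1928 against 2378 CPM on average.

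Hspa5 encodes BiP, the Hsp70-type chaperone of the ER lumen, which also holds the stress sensors inactive. It had 1905, 1908 and 1970 CPM in the H2O2 libraries, against 2321, 2414 and 2400 CPM in the controls. These values are TMM-scaled, as are all CPM values from here on unless stated otherwise. Every H2O2 library was below every control, and the gap between the groups was wider than the range within either. The means were 1928 ± 36.7 CPM with H2O2 and 2378 ± 50.2 CPM in controls (SD, n = 3 each), a log2 fold change of -0.30 (SE 0.0275), or 1.23-fold lower, with an adjusted p of 5.5e-09 in edgeR's test. Among all tested genes, 3.66% were lower by more than Hspa5. It is one of 18 tested genes at its abundance or above, of which 11 were called and 7 were called lower. The gene spans positions 34771970 to 34777547 of chromosome 2 (mm10, GENCODE M21, as for all gene coordinates here), and no exon of another gene overlaps its exons. The call held in all 17 alternative fits, with log2 fold changes of -0.32 to -0.29.

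Manf, a small secreted protein of the ER that binds BiP and is itself induced by ER stress, fell less. It stood at 292, 291 and 297 CPM with H2O2, against 314, 315 and 323 CPM in controls, again with no overlap. The log2 fold change was -0.11 (SE 0.0283), or 1.08-fold lower, with an adjusted p of 0.0046 in edgeR's test, and the call held in all 17 alternatives (adjusted p 0.0022 to 0.047). Manf lies on chromosome 9 at 106838312 to 106891979, and exons of genes on the opposite strand cover 8.85% of its exon bases, whose reads cannot be separated without a stated strand setting.

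Hsp90b1 encodes GRP94, the Hsp90-type chaperone of the lumen with clients such as integrins and Toll-like receptors. Its levels were 847, 840 and 871 CPM with H2O2 and 911, 856 and 895 CPM in controls. The groups overlapped, since H2O2 replicate 3 was above control replicate 2. The difference of -3.89% (95% interval -7.70% to 0.0795%) did not pass (adjusted p = 0.17, edgeR). The gene is on chromosome 10 at 86690209 to 86705509, with 10.3% of its exon bases under opposite-strand exons and 5.38% under exons of other genes on its own strand.

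Sdf2l1, a subunit of an ER-resident DnaJ co-chaperone complex of BiP, was the least abundant of the 10. It had 67.6, 60.2 and 69.1 CPM with H2O2, against 60.5, 61.3 and 61.2 CPM in controls. Here 2 H2O2 libraries lay above all controls and H2O2 replicate 2 lay below them. The fitted log2 fold change of 0.11 (SE 0.0454) did not pass (adjusted p = 0.11, edgeR), and without H2O2 replicate 2 it was 0.17 and passed (adjusted p = 0.0066). In the fit that corrects for transcript length and GC content it was 0.02. The SD of its controls, 0.774% of their mean, was smaller than the counting error of 2.6%. Sdf2l1 lies on chromosome 16 at 17130138 to 17132383.

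The lectin chaperones and their isomerase partner were the 3 genes with all H2O2 libraries above all controls, beside 16.5% of tested genes. Calreticulin (Calr), the soluble lectin that also stores calcium, had 1329, 1249 and 1305 CPM with H2O2, against 1205, 1240 and 1239 CPM in controls. Its groups were apart by the small gap between H2O2 replicate 2 and control replicate 2. The difference of 5.40% (95% interval 1.23% to 9.75%) had an unadjusted p of 0.013 and an adjusted p of 0.059 in edgeR's test, just short of the threshold. It passed in 11 of the 17 alternatives (adjusted p 0.0086 to 0.23 over all 17), DESeq2's test and limma-voom among them, so its side of the threshold depends on the setting, and 3 of the 10 genes were called higher in each of those 11. Calr spans 84841850 to 84846934 of chromosome 8, and the annotation holds a pseudogene named after it, Calr-ps, to which reads can also align.

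Canx encodes calnexin, the membrane-anchored counterpart of calreticulin. It stood at 832, 827 and 788 CPM with H2O2, against 745, 773 and 779 CPM in controls, with H2O2 replicate 3 only just above the controls. It rose by a log2 fold change of 0.09 (SE 0.0285), or 1.07-fold (adjusted p = 0.023, edgeR). The call ended without control replicate 1 (adjusted p = 0.082), control replicate 2 (0.053), H2O2 replicate 1 (0.095) or H2O2 replicate 2 (0.051). Canx is on chromosome 11 at 50293961 to 50325673.

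Pdia3 encodes ERp57, the isomerase that docks on calnexin and calreticulin and works on their glycoprotein clients. Its levels were 998, 943 and 995 CPM with H2O2, against 903, 918 and 907 CPM in controls. The controls lay within a narrow band that all H2O2 libraries exceeded. The log2 fold change was 0.11 (SE 0.0279), or 1.08-fold higher, with an adjusted p of 0.0072 in edgeR's test, and the call held in all 17 alternatives (adjusted p 0.00085 to 0.045). The gene lies on chromosome 2 at 121413775 to 121438687.

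The other isomerases did not pass the test. P4hb, the founding protein disulphide isomerase and also a subunit of collagen prolyl hydroxylase, had 1093, 1097 and 1078 CPM with H2O2 and 1067, 1115 and 1111 CPM in controls. The H2O2 libraries lay inside the control range, and the difference was -0.799% (95% interval -4.56% to 3.11%). Pdia6 encodes the isomerase P5, which binds BiP and takes part in the control of the stress sensor IRE1. It stood at 570, 533 and 557 CPM with H2O2 and 547, 557 and 564 CPM in controls, with the H2O2 libraries spread on both sides of the controls. Its difference was -0.493% (95% interval -4.52% to 3.70%).

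Pdia4 encodes ERp72, an isomerase with several thioredoxin-like domains. It had 319, 318 and 327 CPM with H2O2, against 324, 336 and 338 CPM in controls. The groups overlapped by a single library on each side, and the difference was -3.34% (95% interval -7.27% to 0.763%). None of the 3 genes passed edgeR's test (adjusted p = 0.82 for P4hb, 0.90 for Pdia6 and 0.26 for Pdia4), and none passed in any of the 17 alternatives, where the sign of P4hb and Pdia6 was not fixed. The intervals bound these differences and do not show that there were none. P4hb lies on chromosome 11 at 120560298 to 120573253, Pdia6 on chromosome 12 at 17266545 to 17284770 and Pdia4 on chromosome 6 at 47796141 to 47813430.

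**Figure D2:**
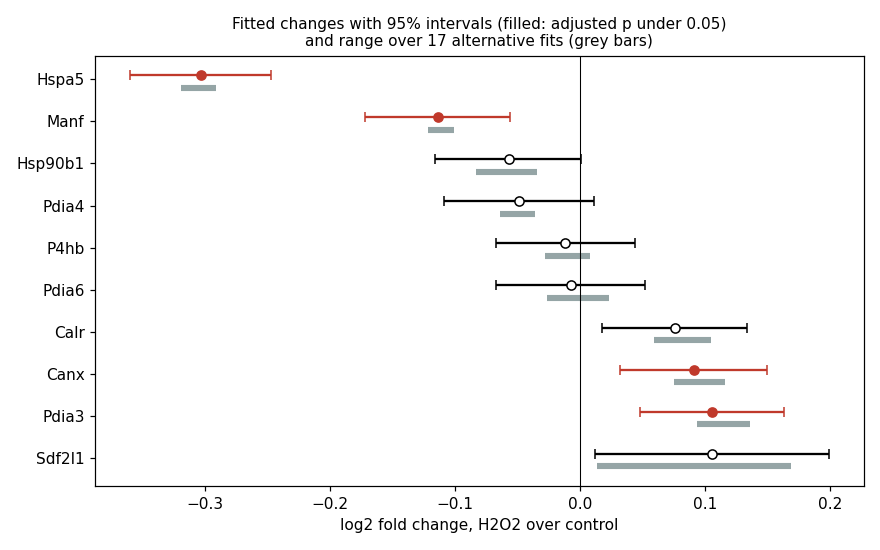
Fitted log2 fold changes of H2O2 over control for the 10 genes, from Hspa5 at the top to Sdf2l1 at the bottom, with 95% intervals (filled red, adjusted p under 0.05) and grey bars for the range over 17 alternative fits. The interval of Hspa5, at -0.30, lies clear of those of the other 9 genes, and the grey bar of Sdf2l1 is the longest, from 0.01 to 0.17.

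The 5 genes with an exact ERSE did not share a direction. Hspa5 fell (-0.30), Canx rose (0.09), and Calr (0.08), Hsp90b1 (-0.06) and Pdia6 (-0.007) did not pass. Outside these 10 genes, 10 further tested genes had the element in a promoter window, and 1 of them was called higher and 1 lower. Those counts are near the shares over all tested genes, 9.70% higher and 10.8% lower. The higher one was Dnajc3, which encodes the BiP co-chaperone P58IPK, at 0.12 (adjusted p = 0.012, edgeR). The lower one was Creld2, an ER stress-inducible protein, at -0.12 (adjusted p = 0.0076, edgeR). Syvn1, the ubiquitin ligase of ER-associated degradation, also had the element and stood at -0.10 without passing (adjusted p = 0.076). In all, 15 of the 9430 tested genes with a promoter window held the element (0.159%), with a median log2 fold change of -0.034.

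Levels were compared between genes per exon length, in transcripts per 1000000 (TPM, from the counts and the union of annotated exons). Hspa5 was the most abundant of the 10 in controls, at 1667 ± 48.6 TPM with H2O2 and 2062 ± 26.9 TPM in controls (SD, n = 3 each). Calr followed at 1643 ± 48.8 TPM with H2O2 and 1563 ± 13.3 TPM in controls. P4hb stood at 1392 ± 11.3 TPM with H2O2 and 1407 ± 23.2 TPM in controls, and Pdia3 at 1140 ± 36.6 TPM with H2O2 and 1062 ± 4.50 TPM in controls. In the H2O2 libraries the levels of Hspa5 and Calr overlapped, while in controls all Hspa5 values were above all Calr values.

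Further down, Hsp90b1 stood at 773 ± 21.6 TPM with H2O2 and 807 ± 31.9 TPM in controls, and Canx at 635 ± 13.2 TPM with H2O2 and 598 ± 10.2 TPM in controls. Pdia6 stood at 540 ± 16.4 TPM with H2O2 and 544 ± 6.00 TPM in controls, and Pdia4 at 490 ± 12.7 TPM with H2O2 and 508 ± 8.26 TPM in controls. The lowest were Manf, at 304 ± 5.93 TPM with H2O2 and 330 ± 4.57 TPM in controls, and Sdf2l1, at 217 ± 16.1 TPM with H2O2 and 202 ± 0.367 TPM in controls. Apart from Hspa5 and Calr with H2O2, no neighbours in this order overlapped in either group. By mean TPM over the 6 libraries Hspa5 ranked 39, Calr 49, P4hb 70 and Pdia3 94 among the 12806 tested genes with a length, and Sdf2l1 ranked 882. The order depends on the length used: with the longest transcript of each gene, Pdia6 stood above Canx, and with H2O2 Calr (1633 ± 45.7 TPM) was above Hspa5 (1447 ± 37.8 TPM).

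**Figure D3:**
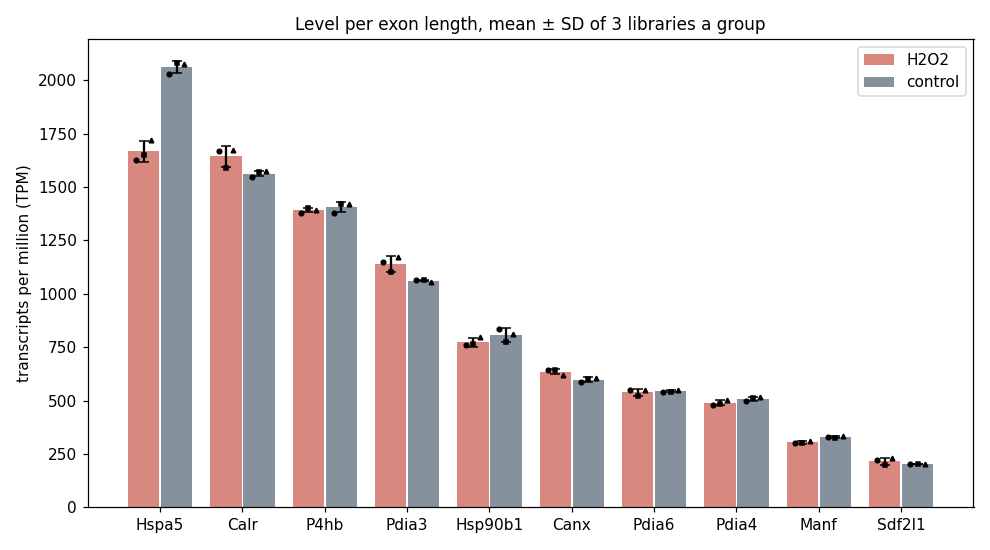
Level per exon length of the 10 genes in TPM, as bars for the mean and whiskers for the SD of 3 libraries, with the single libraries as points, H2O2 in red left of control in dark blue. The genes run from the highest mean level (Hspa5) to the lowest (Sdf2l1), and Hspa5 and Calr are close together with H2O2 (1667 and 1643 TPM) but apart in controls (2062 and 1563 TPM).

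Together the 10 genes took 8229, 8057 and 8333 CPM in H2O2 libraries, against 8435, 8528 and 8566 CPM in controls (summed, without scaling factors). Each H2O2 library was below each control. The means were 0.821% ± 0.0139 of gene counts with H2O2 and 0.851% ± 0.00676 in controls. An exact two-sided permutation test gave p = 0.1, the smallest that 3 against 3 libraries can give. Without Hspa5, the other 9 genes summed to 6329, 6152 and 6345 CPM with H2O2 and 6104, 6131 and 6181 CPM in controls, so the groups overlapped and the mean difference had the opposite sign (137 CPM, exact p = 0.2). Hspa5 made up 23.1%, 23.7% and 23.9% of the counts of the 10 genes in H2O2 libraries and 27.6%, 28.1% and 27.9% in controls.

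Ratios of genes within a library do not depend on how libraries are scaled, and 12 pairs were compared. In 8 pairs the H2O2 and control libraries did not overlap. Among these, Hspa5/Hspa8, Hspa5/Hspa9, Hspa5/Hsp90b1, Manf/Hspa5 and Sdf2l1/Hspa5 share Hspa5, so they are not separate results. The share over all possible gene pairs was not computed, and for single tested genes it was 34.6%. No pair can pass with 3 libraries a group: the smallest exact two-sided p is 0.1, which adjusted over the 12 pairs is 0.15. There were 2.25, 2.27 and 2.26 counts of Hspa5 for each count of Hsp90b1 in H2O2 libraries, and 2.55, 2.82 and 2.68 in controls. The H2O2 libraries were nearly identical in this ratio and all below the controls (1.19-fold lower on the log2 mean, exact p = 0.1, adjusted p = 0.15). The ratio of Manf to Hspa5, both of which fell, was 0.153, 0.153 and 0.151 with H2O2 and 0.135, 0.131 and 0.135 in controls, higher in every H2O2 library (exact p = 0.1, adjusted p = 0.15).

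Hspa5 was also set against Hsp70 proteins of other compartments. For each count of the cytosolic Hspa8 there were 0.911, 0.943 and 0.911 counts of Hspa5 with H2O2 and 1.03, 0.998 and 1.04 in controls. For each count of the mitochondrial Hspa9 there were 2.19, 2.20 and 2.25 with H2O2 and 2.44, 2.58 and 2.51 in controls. Both ratios were lower in every H2O2 library (1.11-fold and 1.14-fold, exact p = 0.1 each). Hsp90b1 against the cytosolic Hsp90ab1 gave 0.262, 0.266 and 0.276 with H2O2 and 0.264, 0.243 and 0.257 in controls, which overlapped (exact p = 0.2).

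Within the lectin cycle, Calr to Canx was 1.60, 1.51 and 1.66 with H2O2 and 1.62, 1.60 and 1.59 in controls, which overlapped (exact p = 0.8). Pdia3 to Calr was 0.751, 0.755 and 0.762 with H2O2 and 0.750, 0.740 and 0.733 in controls, groups that stood apart by little (1.02-fold, exact p = 0.1). Among isomerases, Pdia3 to P4hb was 0.914, 0.860 and 0.923 with H2O2 and 0.847, 0.823 and 0.816 in controls (1.08-fold higher, exact p = 0.1). The ratios of Pdia4 and of Pdia6 to P4hb overlapped (exact p = 0.3 and 1). Sdf2l1 to its relative Sdf2 was 2.76, 2.54 and 2.87 with H2O2 and 2.89, 3.01 and 2.87 in controls. The groups did not overlap, but H2O2 replicate 3 and control replicate 3 were equal to 3 digits. Sdf2 itself was called higher with H2O2 (log2 fold change 0.21, adjusted p = 0.011, edgeR). Of its exon bases, 16% lie under exons of the other strand. Sdf2l1 to Hspa5 was 0.0355, 0.0316 and 0.0351 with H2O2 and 0.0261, 0.0254 and 0.0255 in controls, 1.32-fold higher (exact p = 0.1).

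**Figure D4:**
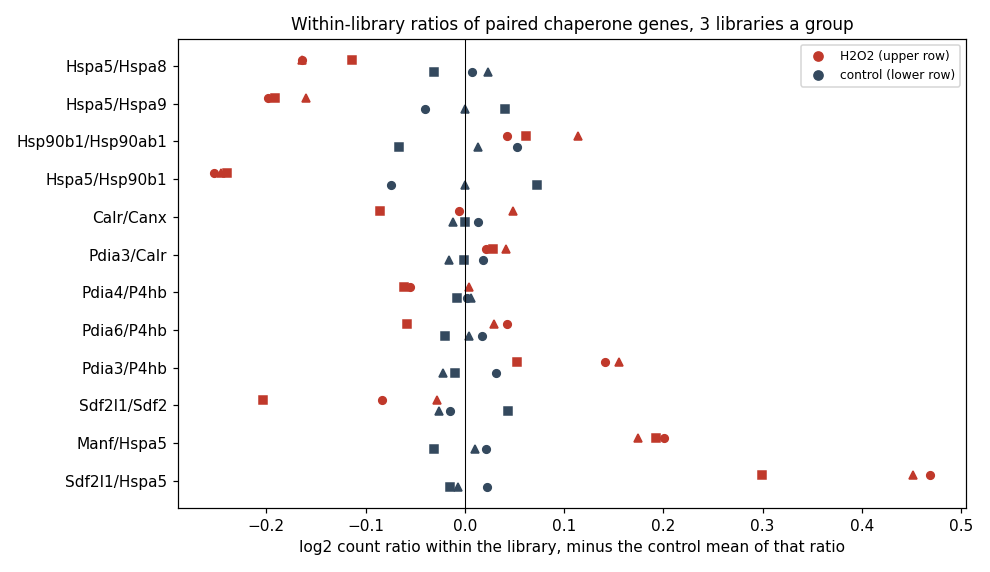
Log2 ratio of the counts of paired genes in each library, minus the mean of that ratio in controls, for 12 pairs, with H2O2 libraries in red above control libraries in dark blue and symbols for replicates 1 (circle), 2 (square) and 3 (triangle). The pairs with Hspa5 on top lie left of 0 with H2O2 and those with Hspa5 below lie right of 0, up to a mean of 0.41 for Sdf2l1/Hspa5.

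Around these 10 genes, 6 lists of the ER folding system held 124 further tested genes, of which 29 rose and 15 fell, with a median log2 fold change of 0.02. That is beside 9.70% higher, 10.8% lower and a median of -0.004 over all tested genes. Shares among genes matched in level to the lists were not computed, so no list count is read as an excess. Among other ER chaperones and co-chaperones, 10 of 26 rose and 2 fell. The peptidyl-prolyl isomerases Ppic (470 ± 4.45 CPM with H2O2 and 405 ± 0.584 CPM in controls; log2 fold change 0.22, SE 0.0271), Fkbp11 (0.37, SE 0.0481) and Ppib (0.28, SE 0.0421) had the smallest p-values. Of the exon bases of Ppib, 25% lie under exons of the other strand. Serpinh1, the collagen chaperone HSP47 and the most abundant of the list, did not pass (2205 ± 21.3 CPM with H2O2 and 2163 ± 60.4 CPM in controls). Without control replicate 2, 6 of the list rose in place of 10. The rises numbered 7 without control replicate 3 or H2O2 replicate 1, and 7 in the fit that corrects for transcript length and GC content.

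Of 23 other disulphide isomerases and thiol oxidases, 7 rose and 1 fell, beside 9.70% higher and 10.8% lower over all tested genes. Erp29, a PDI-like protein without an active cysteine pair, rose by 0.27 (SE 0.0405), the selenoprotein Sep15 by 0.20 (SE 0.0323) and Prdx4, the peroxiredoxin of the ER that uses hydrogen peroxide to oxidise PDI, by 0.24 (SE 0.0393). Of the exon bases of Erp29, 26.4% lie under exons of the other strand. Dnajc10, a reductase with a J domain that binds BiP and the most abundant of the list, rose to 411 ± 4.85 CPM with H2O2, against 367 ± 4.98 CPM in controls. The fall was that of Ero1l, the oxidase that feeds electrons from PDI to oxygen, at 320 ± 7.51 CPM with H2O2 and 346 ± 10.8 CPM in controls (-0.11, SE 0.0304). It was the one call of the list in this direction, and 0 were lower without control replicate 2 or H2O2 replicate 1, against 2 without H2O2 replicate 3 or with the replicate block.

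In the glycoprotein folding cycle, which hands clients to calnexin and calreticulin, 5 of 14 genes rose and 0 fell. Over all tested genes, 9.70% were higher and 10.8% lower. The oligosaccharyltransferase subunits Ddost (0.18, SE 0.0309), Rpn1 (0.11, SE 0.0273), Dad1 (0.17, SE 0.0411) and Rpn2 (0.10, SE 0.0264) rose, as did Uggt1, the folding sensor that returns glycoproteins to the cycle (0.11). Dad1 did not pass without control replicate 2 (adjusted p = 0.06), and 8 of the list rose without control replicate 1.

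Among genes of ER-associated degradation, which clears misfolded proteins, 1 of 23 rose and 5 fell. Over all tested genes, 9.70% were higher and 10.8% lower. The segregase Vcp, which pulls substrates out of the membrane, fell to 492 ± 3.83 CPM with H2O2, against 598 ± 8.38 CPM in controls (-0.28, SE 0.0269). Herpud1 (-0.20, SE 0.0328) and the ligase adaptor Sel1l (-0.13, SE 0.0301) fell, and Edem2, a mannosidase-like protein, rose (0.14). The number of rises was 2 without control replicate 1, H2O2 replicate 1 or H2O2 replicate 2, and 3 with upper-quartile factors or the stricter filter.

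Of 18 sensors and factors of the unfolded protein response, 6 fell and 1 rose, beside 10.8% lower and 9.70% higher over all tested genes. Ppp1r15a, which restores translation by targeting a phosphatase to eIF2 alpha, had the largest fall (-0.53, SE 0.0337), followed by the stress factor Ddit3 (-0.30, SE 0.0410) and the pseudokinase Trib3 (-0.22, SE 0.0332). Atf4, the most abundant of the list, fell to 977 ± 19.9 CPM with H2O2, against 1063 ± 7.14 CPM in controls. The sensor genes Ern1 (-0.16) and Atf6 (-0.10) fell, while Eif2ak3 (-0.04) and the factor Xbp1 (0.02) did not pass. These are total gene counts and do not tell spliced from unspliced Xbp1. The rise was that of Creb3 (0.17), 20.8% of whose exon bases lie under opposite-strand exons, and it was not called without control replicate 2 or H2O2 replicate 1.

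For the translocon and signal peptide handling, 5 of 20 rose and 1 fell, beside 9.70% higher and 10.8% lower over all tested genes. Sec61b, the small subunit of the channel, rose by 0.29 (SE 0.0389), or by 0.16 in the fit that corrects for transcript length and GC content. Ssr4, of the translocon-associated complex, rose by 0.25 (SE 0.0461), Sec62, which serves posttranslational entry, fell by 0.12 (SE 0.0291), and Ssr3, the most abundant, did not pass (0.02). Of the exon bases of Sec62, 11.7% lie under exons of the other strand. Falls numbered 2 without H2O2 replicate 1 or 2.

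The relatives of the 10 genes in the cytosol and mitochondria were mostly lower with H2O2. Of 9 tested genes, 8 fell, beside 10.8% of all tested genes, and 0 rose. The mitochondrial co-chaperonin Hspe1 did not pass (-0.02). The share among genes matched in level to these relatives was not computed, so 8 of 9 is not read as an excess. The falls numbered 7 in 9 of the 17 alternatives, each of the other scalings among them, and 6 without control replicate 2 or H2O2 replicate 1. The cytosolic Hspa4 was nearest the threshold, at -0.08 (adjusted p = 0.046, edgeR). The stress-inducible Hspa1b had the largest fall (-0.34, SE 0.0469), a value that is uncertain because its near-identical copy Hspa1a, which was not tested, can share its reads. The mitochondrial chaperonin Hspd1 fell by 0.19 (SE 0.0264), Hsp90aa1 by 0.18 (SE 0.0290), Hspa8 by 0.16 (SE 0.0302) and Hspa9 by 0.12 (SE 0.0260). Hsp90ab1, the most abundant of them, stood at 3185 ± 41.0 CPM with H2O2 and 3485 ± 35.0 CPM in controls (-0.13, SE 0.0262). Every fold change named in these lists and given as a rise or fall had an adjusted p under 0.05 in edgeR's test.

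**Figure D5:**
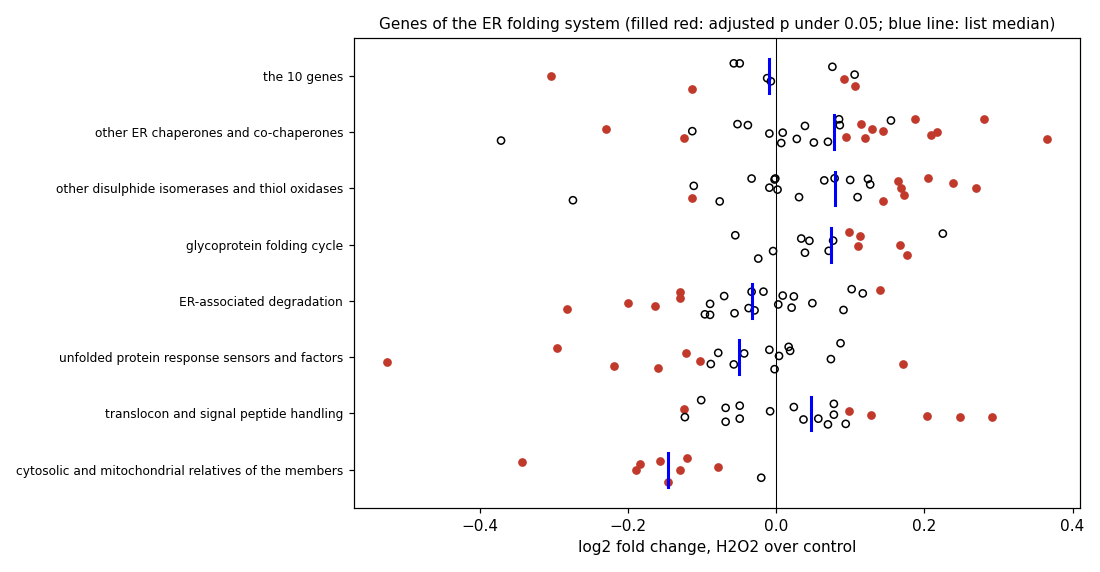
Log2 fold change of H2O2 over control for the 10 genes, the 6 lists of the ER folding system and the list of cytosolic and mitochondrial relatives, 1 point per tested gene (filled red, adjusted p under 0.05; vertical spread is only for legibility) with a blue line at each list median. The medians lie near 0.08 for other chaperones and for other isomerases, and at -0.05 for sensors and factors and -0.15 for the relatives.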

How the data were processed

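The mRNA libraries of 3 H2O2 and 3 control samples were analysed. The authors deposited raw counts of reads, in a separate table for each library with gene symbols as row names. The submitters' processing notes name STAR 2.5.3, HTSeq, cutadapt, bcl2fastq 2.17.1.14 and DESeq2 beside the build mm10, and the annotation and strand setting are not given in the sources used here. The 5 HTSeq summary classes (19.1% to 20.0% of counted reads) were left out. Counts were filtered with filterByExpr, scaled with TMM factors and tested with edgeR 4.0.16 (R 4.3.3; limma 3.58.1) with treatment as the only term, and p-values were adjusted over all 12924 genes. The summed counts and the gene ratios were compared by exact permutation tests over the 6 libraries. Levels per length and list medians were described without a test. Alternatives were other scalings, DESeq2 1.42.0, limma-voom, other filters, a replicate block, a loess offset (span 0.3) for length and GC content, and fits without each library. The procedures were run on counts simulated from the main edgeR fit, without batch effects, so that run does not test the assumptions of that fit.

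Lengths came from GENCODE M21 (99.1% of tested genes) and promoters from RefSeq (GRCm38.p6). Named genes are the 10 genes, the 3 with the smallest p and the most abundant of each list, and the genes of each ratio pair. Others named (Uggt1, Edem2, Ero1l, Ern1, Atf6, Eif2ak3, Xbp1, Creb3, Dnajc3, Creld2, Syvn1, Hspe1, Hspa4) were chosen after their values were seen. The genes and lists were chosen with earlier results of these data known. No 2 libraries of a group agreed within sampling noise (chi-square over degrees of freedom 1.63 to 11.7). H2O2 replicate 3 stood apart most, at 9.16 against H2O2 replicate 1 and 11.7 against H2O2 replicate 2. All other pairs within a group gave 1.63 to 2.94. The symbols Adgre1 and Jchain were read under their older names Emr1 and Igj.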

Additional observations from a re-analysis of the deposited data

How the results depend on the processing

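Over 17 alternatives, the calls of Hspa5, Manf and Pdia3 held in each, and Hsp90b1, Pdia4, Pdia6 and P4hb were called in none. Fits without 1 library called 1 to 3 of the 10 genes higher: 1 without control replicate 1, control replicate 2 or H2O2 replicate 1, where Canx did not pass, and 3 without H2O2 replicate 2, where Calr and Sdf2l1 passed and Canx did not. In all, 11 of the 17 alternatives called 3 higher, Calr being one of them in each. The falls among the 10 numbered 2 in all 17. Over all genes, fits without 1 library called 926 (without H2O2 replicate 1) to 1313 lower. Pdia6 changed sign with upper-quartile factors (0.006) and the stricter filter (0.002), and stood at 0.004 to 0.023 without control replicate 3 or H2O2 replicate 2. P4hb changed sign with upper-quartile factors (0.001) and with the length and GC offset (0.008 with and without the replicate block). Without 1 library, Pdia6 ran from -0.026 to 0.023, Ssr3 from -0.002 to 0.042, and the log2 ratio differences (H2O2 minus control) of Calr/Canx from -0.0467 to 0.0203 and of Pdia6/P4hb from -0.0150 to 0.0351. The causes were not tested. Sdf2 was not called with the offset (adjusted p = 0.055) or without control replicate 2 (0.056). Over all tested genes, same-numbered libraries did not deviate together (correlations of -0.026 to 0.030, against -0.037 to 0.033 for different numbers). The labels do not say whether the numbers pair libraries, and these correlations cannot exclude it. The replicate block, which called 1294 genes higher and 1444 lower, changed no call among the 10. The counting error (1 SD of a Poisson count) was larger than the SD between libraries for Sdf2l1 in controls (2.6% against 0.774%) and Manf with H2O2 (1.12% against 1.00%), and smaller for the other genes and groups among the 10.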
